A study of Rattus norvegicus with 6 samples.

Results

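The miRNAs described here are the arms of the miR-28, miR-151 and miR-708 hairpins, whose genes arose from LINE-2 elements. The 6 arms were taken by name, and not by a limit on their values, from a table of miRNA reads in rat serum exosomes. Earlier results of these data were known at that time. Of these, 5 had a row among the 867 listed sequences: rno-miR-28-5p, rno-miR-28-3p, rno-miR-151-5p, rno-miR-151-3p and rno-miR-708-3p. The other arm, rno-miR-708-5p, had no row and was not analysed here. Together the 5 arms held 0.600% to 0.711% of the listed reads of a library, and miR-151 alone held 91.6% to 95.1% of these.

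LINE-2 elements are old transposons that no longer move in mammals. Copies inserted in opposite orientations next to each other can be transcribed into a hairpin, and the enzymes Drosha and Dicer can then cut this hairpin into a miRNA duplex. Either strand of the duplex, the 5p or the 3p arm, may be loaded into an Argonaute protein, where bases 2 to 8 (the seed) do most of the target recognition. miR-28 and miR-151 are broadly expressed, miR-28 is known for its restraint of B cell growth, and miR-151 for its part in cell migration together with its host gene. By the gene spans that RefSeq lists for GRCr8, a rat assembly, the gene of miR-28 lay within the span of Lpp, which encodes a protein of focal adhesions. The gene of miR-151 lay within Ptk2, which encodes focal adhesion kinase, and also within the overlapping miRNA gene Mir151b. The gene of miR-708 lay within Tenm4, which encodes a teneurin of the cell surface. Positions in the build of the submitters' notes, Rnor_6.0, were not used here.

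The mature sequences show why the hairpins are grouped, and are written as DNA from 5′ to 3′ with the seed in capitals. The sequence of rno-miR-708-5p was taken from RefSeq (GRCr8), and the others from the deposited table. RefSeq held 4 of the 6 arms, and the 3 of these that were also listed were identical in both.
rno-miR-28-5p: aAGGAGCTcacagtctattgag
rno-miR-708-5p: aAGGAGCTtacaatctagctggg
rno-miR-151-5p: tCGAGGAGctcacagtctagt
rno-miR-28-3p: cACTAGATtgtgagctcctgga
rno-miR-151-3p: cTAGACTGaggctccttgagg
rno-miR-708-3p: cAACTAGActgtgagcttctag
The 5p arms of miR-28 and miR-708 shared the seed AGGAGCT. rno-miR-151-5p holds the same 7 letters from base 4 instead of base 2, so its seed, CGAGGAG, is shifted by 2 bases. The run shared by rno-miR-28-5p and rno-miR-151-5p was 16 bases long (AGGAGCTCACAGTCTA). The 3p arms had 3 different seeds. In all, 5 of the 867 listed sequences (0.577%) held AGGAGCT on the listed strand, namely rno-miR-28-5p, rno-miR-151-5p, their longer forms miR-28-x and miR-151-x described below, and rno-miR-339-5p. No listed sequence other than the longer forms had the seed of a member.

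The relation between the hairpins also crosses the arms. The longest stretch of rno-miR-28-5p that is complementary to rno-miR-28-3p was 11 bases, whereas its stretch complementary to rno-miR-708-3p was 13 bases. For rno-miR-151-5p, the complementary stretch was 8 bases with its own 3p arm and 15 bases with rno-miR-708-3p. The closest pair of members on the same strand was rno-miR-28-5p and rno-miR-151-5p, with 2 mismatches over 19 aligned bases. How the counting treated reads with mismatches is not given in the sources used here.

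Exosomes are small vesicles that cells release into blood and other fluids with their RNA. In this study, they were isolated by ultracentrifugation from the serum of male Sprague-Dawley rats aged 6 to 8 weeks on a normal diet. The donors of NXT-Exo were gavaged with Naoxintong Capsule (NXT), a herbal and animal preparation used in vascular disease, at 1000 mg/kg/d, and those of Ctl-Exo with saline at 5 mL/kg/d, with 10 rats per group. Dosing lasted 7 days by the titles of the samples, while in a separate treatment field the duration is 7, 8, 9, 10 and 11 days from NXT-Exo 1 to NXT-Exo 5 and 11 days in the control. The libraries used were NXT-Exo 1 to 5 and Ctl-Exo 5. The table also has columns headed Ctl-Exo 1 to 4, which match none of the sample descriptions used here and were left out, so each comparison with the control rests on Ctl-Exo 5 alone. The sources do not tie a library to a single rat, and the protocol gives only a total volume of serum for ultracentrifugation, so the spread between libraries may be partly technical.

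The libraries held 1168686 to 3781718 listed reads, and no pair agreed within counting noise. Reads were scaled to library size as CPM (counts scaled to a common library total) with edgeR's TMM factors, on which 1 read was worth 0.261 to 0.782 CPM. Since each read covers a whole miRNA of 21 to 24 bases, no division by length was made. Exosome proteins cannot be read from a miRNA table. As markers of the cells that feed serum RNA, 4 red blood cell miRNAs summed to 157715 to 260257 CPM in NXT-Exo (with NXT-Exo 3 the highest) and 210386 CPM in Ctl-Exo 5. For 4 miRNAs of white blood cells and platelets the sums were 20705 to 24462 CPM and 25676 CPM, for 2 liver miRNAs 3308 to 17426 CPM (highest in NXT-Exo 1) and 2203 CPM, and for 2 endothelial miRNAs 1154 to 1498 CPM and 1252 CPM. No marker was at 0.

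The levels of the members spanned more than 3 orders of magnitude. rno-miR-151-3p was the most abundant, at 4285, 3861, 3372, 3377 and 3455 CPM in NXT-Exo 1 to 5 and 3814 CPM in Ctl-Exo 5, and ranked 36th of the listed sequences by mean level. It was followed by rno-miR-151-5p, at 1854, 1856, 2997, 2587 and 2352 CPM in NXT-Exo 1 to 5 and 1986 CPM in Ctl-Exo 5. The 2 arms were opposite in their extremes. NXT-Exo 3 had the highest 5p and, by a small margin, the lowest 3p level, and NXT-Exo 1 the highest 3p and, by a small margin, the lowest 5p level. rno-miR-28-3p was at 443, 417, 236, 427 and 414 CPM in NXT-Exo 1 to 5 and 426 CPM in Ctl-Exo 5. One library, NXT-Exo 3, was far below the other 5, which lay within 414 to 443 CPM. rno-miR-28-5p, the arm with the seed it shares with miR-708, was at 114, 86.4, 87.2, 103 and 82.2 CPM in NXT-Exo 1 to 5 and 109 CPM in Ctl-Exo 5. Last came rno-miR-708-3p, with 5, 5, 7, 7 and 9 reads in NXT-Exo 1 to 5, or 1.67, 1.51, 3.15, 5.47 and 2.35 CPM, and 1 read or 0.544 CPM in Ctl-Exo 5. Its rank by mean level was 528.

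**Figure D1:**
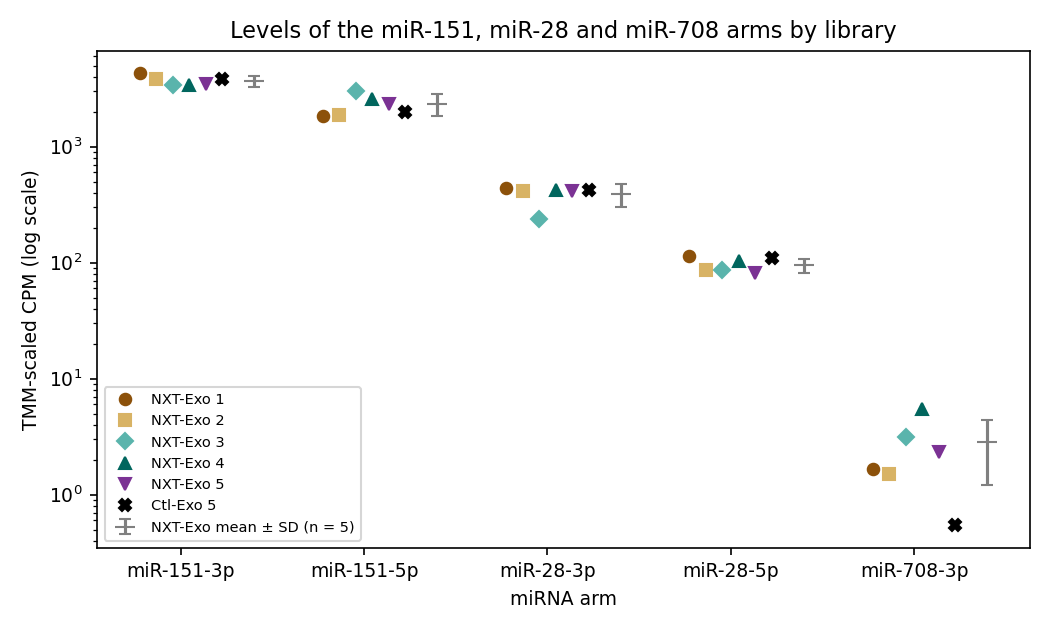
TMM-scaled CPM on a log axis of the 5 listed arms, 1 symbol per library, with the NXT-Exo mean ± SD (n = 5) in grey. For miR-28-3p NXT-Exo 3 lies apart at 236 CPM, and miR-708-3p, with few reads, is spread from 1.51 to 5.47 CPM in NXT-Exo above 0.544 CPM in Ctl-Exo 5.

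The order of the 5 levels was the same in each of the 6 libraries. Within a library, rno-miR-151-3p was above rno-miR-151-5p by 0.72 ± 0.41 on the log2 scale (SD, n = 6), and rno-miR-151-5p above rno-miR-28-3p by 2.53 ± 0.59. rno-miR-28-3p was above rno-miR-28-5p by 2.00 ± 0.32, and rno-miR-28-5p above rno-miR-708-3p by 5.44 ± 1.04. For all 4 neighbouring pairs, the exact two-sided sign-flip permutation test over the 6 libraries gave p = 0.03125, which is the smallest p it can give, and the same value after Benjamini-Hochberg adjustment over the 4 pairs. The pairs were formed by the mean levels in these same libraries, so the tests add no independent support for the order. The arms differ in sequence, and the efficiency of ligation to each was not measured.

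The study asks what NXT changes in circulating exosomes. The 4 arms of miR-28 and miR-151 were at similar levels in NXT-Exo and Ctl-Exo 5, and Ctl-Exo 5 lay inside the range of the NXT-Exo libraries for each of them. A difference is the log2 of the mean CPM of NXT-Exo, with 1 added, less the same for Ctl-Exo 5, and is given beside the SD of the NXT-Exo libraries on that scale. rno-miR-151-5p was 2329 ± 491 CPM (SD, n = 5) in NXT-Exo, a log2 difference of 0.23 against an SD of 0.30, with 3 of 5 NXT-Exo libraries above Ctl-Exo 5, and 0.12 without NXT-Exo 3. For rno-miR-151-3p, 3670 ± 399 CPM (SD, n = 5) gave a log2 difference of -0.06 against an SD of 0.15, and -0.12 without NXT-Exo 1. rno-miR-28-3p was 388 ± 85.2 CPM (SD, n = 5), with a log2 difference of -0.14 against an SD of 0.38, which was -0.0017 without NXT-Exo 3. rno-miR-28-5p was 94.6 ± 13.5 CPM (SD, n = 5), and its log2 difference of -0.20 was as large as its SD of 0.20, with 4 of 5 NXT-Exo libraries below Ctl-Exo 5. By comparison, the median absolute log2 difference was 0.28 over the 467 listed sequences that averaged at least 10 reads. Because only Ctl-Exo 5 was used, and not the columns headed Ctl-Exo 1 to 4, the control had no spread of its own and no p-value was calculated. With 5 libraries against 1, as used here, an exact two-sided permutation test that doubles the smaller tail cannot go below 0.333.

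rno-miR-708-3p was the exception in position. All 5 NXT-Exo libraries were above Ctl-Exo 5, with 2.83 ± 1.61 CPM (SD, n = 5) against 0.544 CPM, a log2 difference of 1.31 beside an SD of 0.55. The 33 reads in NXT-Exo and the single read in Ctl-Exo 5 gave a ratio of 4.44 between the pooled libraries. Its exact 95% interval, which covers counting error only, ran from 0.743 to 180.5, so a difference was not detectable at this depth. Against the level that 3 reads would have in Ctl-Exo 5, 1.63 CPM, the NXT-Exo mean was 1.73 times as high. By the fold with 1 CPM added, 1 of the 5 arms was at least 2-fold apart with Ctl-Exo 5 outside the NXT-Exo range, and with 10 CPM added 0 of 5 were. Among the 865 miRNAs with reads, 11.4% were apart in this way in either direction, and 5.32% in the direction of higher NXT-Exo levels. Whatever the fold, Ctl-Exo 5 was outside the NXT-Exo range for 1 of 5 arms and for 30.3% of all miRNAs.

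The sum of the 5 arms varied less than each arm alone. NXT-Exo held 6484 ± 218 CPM (SD, n = 5) and Ctl-Exo 5 held 6336 CPM, a log2 difference of 0.03 against an SD of 0.05. With listed totals in place of TMM factors, the difference was 0.09, and the sum ran from 0.600% to 0.711% of the listed reads. With TMM factors it ran from 6222 to 6698 CPM, a narrower relative range. The small spread of the sum therefore depends on the scaling. For miR-151, the 2 arms together ranged from 5717 to 6369 CPM over the 6 libraries, with a coefficient of variation of 4.15%, and that of the 5-arm sum was 3.17%. For rno-miR-151-5p alone it was 20.3%, for rno-miR-151-3p 9.78% and for the other arms 13.8% to 70.2%. For the rat-named sequences, the arms of miR-28 did not show this. Their sum had a coefficient of variation of 17.3%, against 13.8% for rno-miR-28-5p and 19.7% for rno-miR-28-3p. The sum was lowest in NXT-Exo 3, at 324 CPM. In that library many 3p reads were in the longer form miR-28-y described below, which is not in this sum.

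Both hairpins with 2 listed arms gave more 3p than 5p reads in all 6 libraries. miR-28 had 4.00 times as many 3p as 5p reads by a mean 3p excess of 2.00 ± 0.32 on the log2 scale (SD, n = 6), and miR-151 had 1.65 times as many, by 0.72 ± 0.41. Each gave p = 0.03125 in the exact two-sided sign-flip permutation test over 6 libraries, the smallest p possible, and 0.03125 after adjustment over the 2 hairpins. The 5p arm thus made up 20.2% ± 3.71 of the reads of miR-28 and 38.0% ± 6.67 of those of miR-151 (SD, n = 6). Both arms were counted in the same library, so depth cancels, but the arms differ in sequence and the efficiency of ligation to each was not measured. Most of the 115 hairpins with both arms listed and at least 10 reads on average also had 1 arm higher in all 6 libraries. A constant arm gives the smallest p by itself, so this p is not particular to miR-28 and miR-151.

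For miR-151, the 5p share was 30.2%, 32.5%, 47.1%, 43.4% and 40.5% in NXT-Exo 1 to 5 and 34.2% in Ctl-Exo 5. The 95% Wilson intervals of the 6 libraries, which cover counting error only, did not overlap one another. In NXT-Exo 3 the arms came close to equal, with 6667 reads of rno-miR-151-5p and 7499 of rno-miR-151-3p, whereas NXT-Exo 1 had 5562 and 12852. For miR-28, the share was 20.5%, 17.2%, 26.9%, 19.5% and 16.5% in NXT-Exo 1 to 5 and 20.4% in Ctl-Exo 5. NXT-Exo 3 was again the highest, and its interval of 23.8% to 30.3% lay above those of the other 5 libraries. The groups did not separate on either hairpin. The log2 ratio of 5p to 3p reads of miR-28 was -2.01 ± 0.35 (SD, n = 5) in NXT-Exo, against -1.96 in Ctl-Exo 5. For miR-151 the ratio was -0.67 ± 0.44 (SD, n = 5), against -0.94. Ctl-Exo 5 was inside the NXT-Exo range for both, while it was outside for 33% of 115 hairpins.

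**Figure D2:**
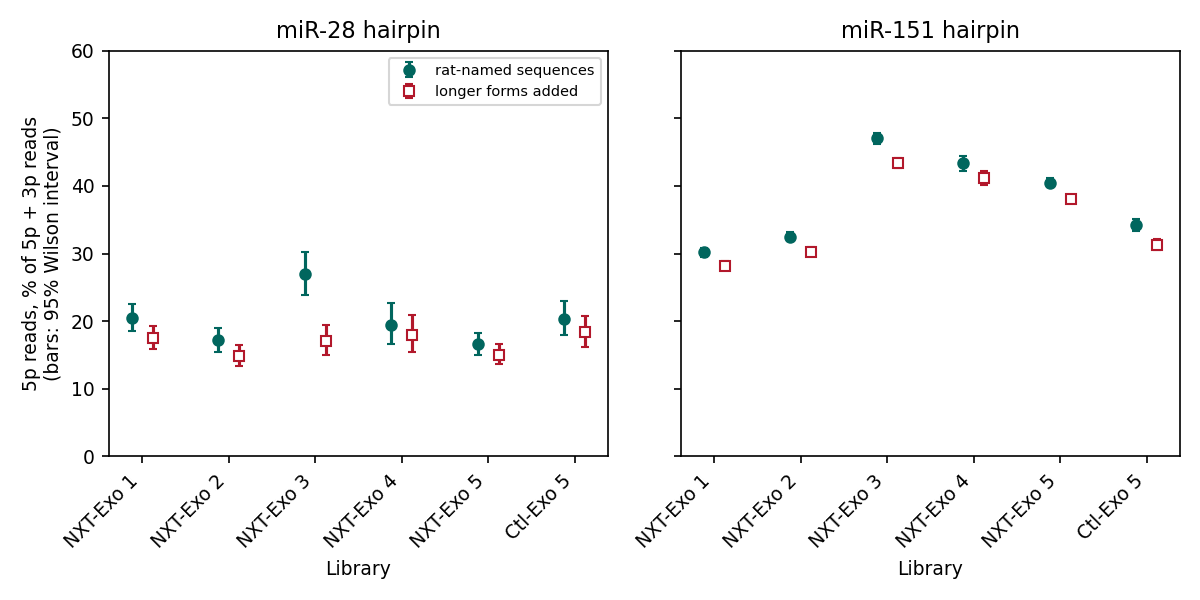
Percent of the reads of each hairpin that came from the 5p arm, by library, with 95% Wilson intervals, for the rat-named sequences (filled circles) and with the longer forms added (open squares). The 5p share of miR-151 runs from 30.2% to 47.1%, and the high value of miR-28 in NXT-Exo 3, 26.9%, is 17.1% when the longer forms are added.

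Set beside the 115 rat hairpins with both arms listed and at least 10 reads on average, miR-28 and miR-151 were among those with the more even arms. The median absolute log2 ratio was 4.82, and 24 hairpins had a smaller ratio than miR-28 and 12 a smaller one than miR-151. The 3p arm was the higher one in 45 of the 115. Their neighbours in this order were the miR-181c (-2.06 ± 0.22) and miR-18a (-2.0 ± 1.15) hairpins on the side of miR-28, and miR-872 (-0.24 ± 0.35) and miR-542 (-0.24 ± 1.00) on that of miR-151 (SD, n = 6). Between them lay only miR-126a, an endothelial miRNA, at -1.26 ± 0.08. The ratio of miR-151 also varied more between libraries than that of most well covered hairpins. Among 30 hairpins with a mean of at least 100 reads in the lower arm, a limit chosen after the values were seen, the SD of miR-151 was second from the highest (0.41, against a median of 0.29). That of miR-28 (0.32) ranked 20th from the lowest. Among these 30 hairpins, 10 had a smaller absolute ratio than miR-28 and 4 a smaller one than miR-151. Over all 115 hairpins, many with few reads in the lower arm, the SD of miR-151 ranked 37th from the lowest, and the median SD was 0.74.

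**Figure D3:**
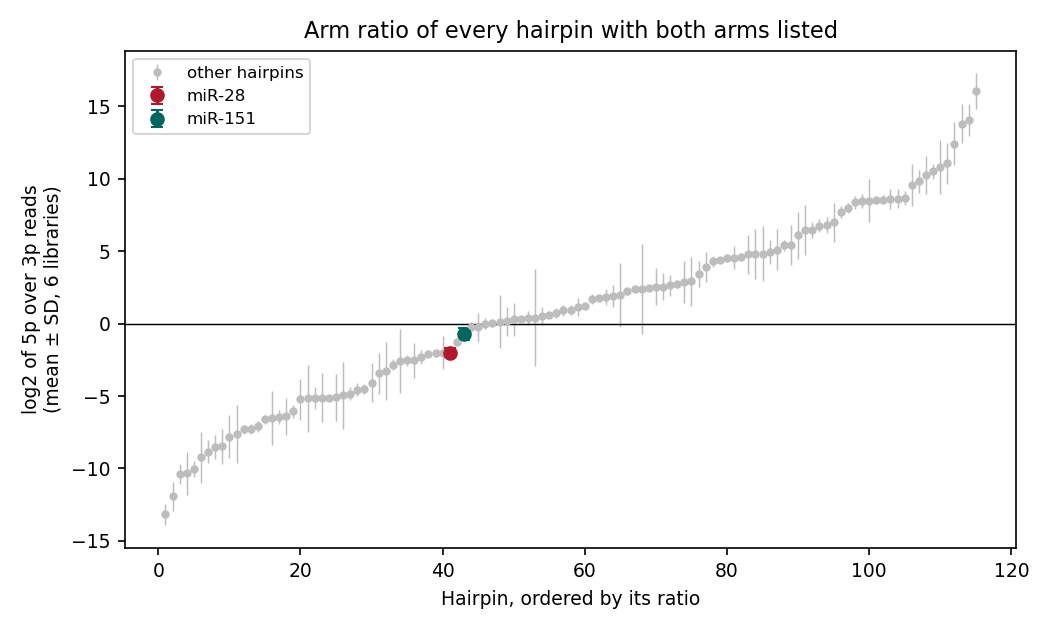
Log2 ratio of 5p to 3p reads (mean ± SD over 6 libraries) of the 115 hairpins with both arms listed, in rising order. miR-28 at -2.0 and miR-151 at -0.72 are among the 45 hairpins below the line of equal arms, at places 41 and 43 from the left.

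The table also lists sequences under names without the rat prefix, and 4 of these are a member followed by AA. They are shown because the reads of a member are divided between its rat-named sequence and this longer form. The added bases are in capitals.
miR-28-x: aaggagctcacagtctattgagAA
miR-28-y: cactagattgtgagctcctggaAA
miR-151-x: tcgaggagctcacagtctagtAA
miR-151-y: ctagactgaggctccttgaggAA
The seed is the same in both forms. The sequences of the miR-28 and miR-151 hairpins were not used here, so whether the added bases lie in the gene or were added to the miRNA was not tested.

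The 3p arms had many more longer reads than the 5p arms. miR-151-y made up 9.93%, 10.6%, 14.2%, 9.11% and 10.3% of the reads of rno-miR-151-3p and miR-151-y in NXT-Exo 1 to 5, and 13.5% in Ctl-Exo 5. miR-151-x was only 0.518% to 0.964% in NXT-Exo and 1.19% in Ctl-Exo 5, where it rested on 44 reads. Its 95% Wilson interval in Ctl-Exo 5, 0.889% to 1.60%, overlapped that of NXT-Exo 2, 0.750% to 1.24%. miR-28-x had 8 reads in NXT-Exo 5, or 2.48% with a 95% Wilson interval of 1.26% to 4.81%. It had 0 reads in the other 5 libraries, where the upper limits of the Wilson intervals were 1.11% to 2.83%.

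The share of miR-28-y separated NXT-Exo 3 from all other libraries. In NXT-Exo 3 it was 44.0% (95% Wilson interval 40.8% to 47.2%), with 413 reads of miR-28-y and 526 of rno-miR-28-3p. It was 17.7%, 15.9%, 9.15% and 12.8% in NXT-Exo 1, 2, 4 and 5 and 12.1% in Ctl-Exo 5, and none of their intervals reached above 19.7%. The low rno-miR-28-3p of NXT-Exo 3 was therefore matched by a high miR-28-y. With both sequences added, the level was 538, 496, 422, 470 and 475 CPM in NXT-Exo 1 to 5 and 485 CPM in Ctl-Exo 5. NXT-Exo 3 was still the lowest, but the SD of the NXT-Exo libraries fell from 85.2 to 42.1 CPM, and the log2 difference to Ctl-Exo 5 was -0.01 instead of -0.14.

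**Figure D4:**
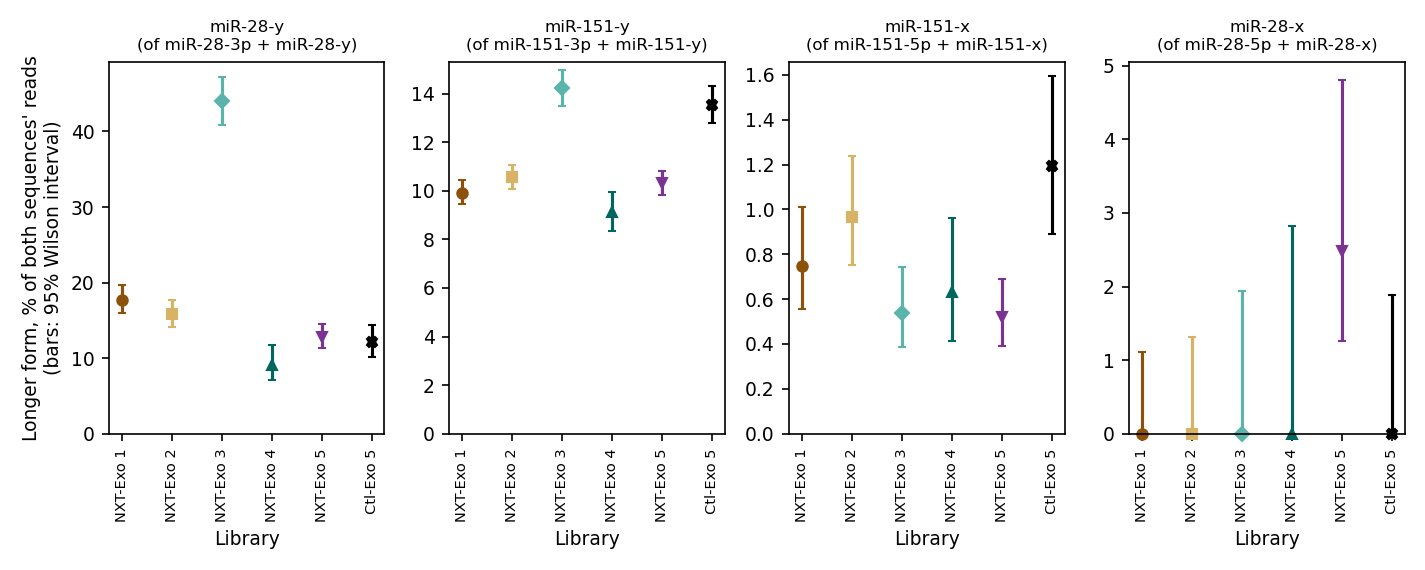
Percent of reads in the longer form of each arm, by library, with 95% Wilson intervals and a separate axis for each arm. miR-28-y stands at 44.0% in NXT-Exo 3 and at 9.15% to 17.7% in the others, while miR-151-y lies between 9.11% and 14.2%.

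Adding the longer forms also changed the arm comparison of miR-28. The 5p share in NXT-Exo 3 became 17.1%, inside the range of 14.8% to 18.3% of the other libraries, and the SD of the log2 ratio over 6 libraries fell from 0.32 to 0.16. For miR-151 the shares still ran from 28.2% to 43.4%, with an SD of 0.40 instead of 0.41. The mean log2 ratio with the longer forms was -2.31 for miR-28 and -0.88 for miR-151. The high 5p share of miR-28 in NXT-Exo 3 therefore came with the division of 3p reads between 2 listed sequences, and the spread of miR-151 did not.

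NXT-Exo 3 was picked because rno-miR-28-3p and miR-28-y stood out in it, and its other miRNAs were then examined in the same way. The table holds 90 pairs of a rat-named sequence and one without the prefix that extends it at the 3′ end by 1 to 4 bases, and in 17 of them the added bases are AA. After the values were seen, the 29 pairs that averaged at least 300 reads and had a longer share of at least 1% were compared. In NXT-Exo 3, the share of miR-28-y was 3.07 times the median of the other NXT-Exo libraries. The choice of this library favours a high ratio for miR-28-y, as pairs that stand out in another library cannot rank high. The ratio was 0.728 to 2.11 in the other 28 pairs, with a median of 1.09, and 1.40 for miR-151-y. miR-28-y also had the largest SD of the log2 odds of the longer form between NXT-Exo libraries, at 1.12 against at most 0.59 in the other 28 pairs. This order depends on both limits. Without the limit on the share, 3 of 50 pairs ranked higher by the ratio and 5 had a larger SD. The 3 were miR-144-y, miR-872-y and miR-98-x, each at or below 1.00% in NXT-Exo 3. For 2 of them, miR-872-y and miR-98-x, the median of the other NXT-Exo libraries was 0, so the ratio has no finite value. Over all 90 pairs, many with few reads, 12 ranked higher, 4 of them against a median of 0, and 26 had a larger SD. NXT-Exo 3 had the highest sum of red blood cell miRNAs, and the part of these cells in the value was not tested.

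**Figure D5:**
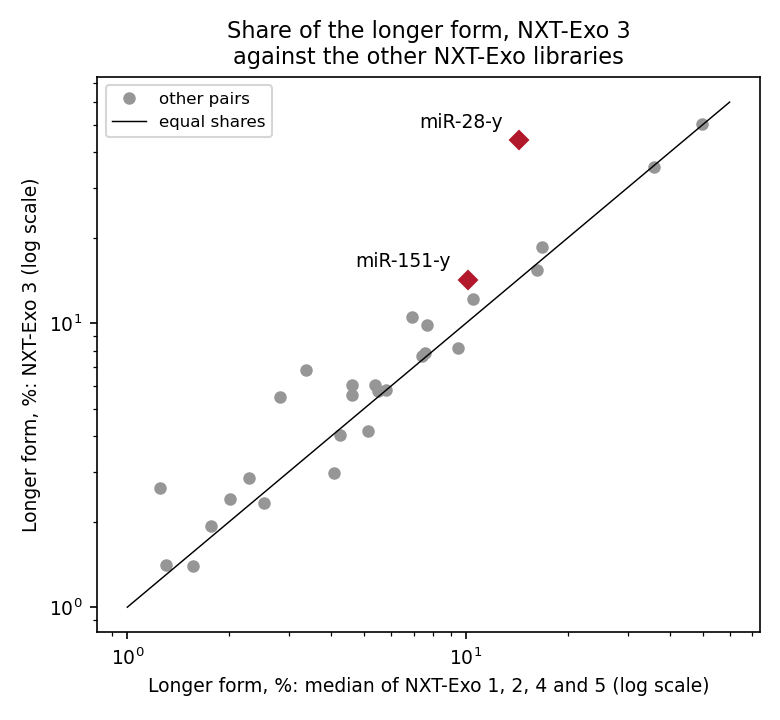
Percent of reads in the longer form in NXT-Exo 3 against the median of the other 4 NXT-Exo libraries for 29 pairs, both axes on a log scale, with the line of equal shares. miR-28-y lies at 44.0% against 14.3%, farther above the line than the other 28 pairs shown, and miR-151-y at 14.2% against 10.1%. NXT-Exo 3 was picked because miR-28-y stood out in it.

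rno-miR-708-3p averaged fewer than 10 reads and was not profiled. The profile of each of the other 4 arms over the 6 libraries was compared with those of 286 other rat miRNAs that averaged at least 10 reads, by the root mean square (RMS) difference of log2(CPM + 1) after each was centred on its mean. rno-miR-28-5p was most like miR-328a-3p (RMS 0.07) and miR-223-3p, a miRNA of myeloid cells and platelets (0.09). rno-miR-151-3p was most like miR-23a-3p (0.08) and miR-361-5p (0.09), and rno-miR-151-5p most like miR-181a-2-3p (0.13) and miR-181c-5p (0.14). rno-miR-28-3p, which carries the low value of NXT-Exo 3, was most like miR-145-3p and miR-29b-3p (0.16 for both). The median RMS to the 286 miRNAs was 0.32 to 0.42. In neither hairpin was the other arm the closest profile, as rno-miR-28-5p and rno-miR-28-3p differed by an RMS of 0.29 and the arms of miR-151 by 0.37. With miR-28-y added to rno-miR-28-3p, the difference to rno-miR-28-5p was 0.15. These are descriptions of 6 points and share the depth of each library.

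Other miRNAs have been assigned to LINE-2 elements in mammals, and a list of 6 (miR-325, miR-370, miR-374, miR-421, miR-493 and miR-545) was written for comparison. Of these, 4 had a row, with 5 arms. None was at least 2-fold apart with Ctl-Exo 5 outside the NXT-Exo range, against 11.4% of all miRNAs. rno-miR-374-5p was the most abundant, at 121 ± 36.2 CPM (SD, n = 5) in NXT-Exo against 161 CPM in Ctl-Exo 5, with a log2 difference of -0.41 against an SD of 0.42. The arms rno-miR-374-3p, rno-miR-421-3p, rno-miR-370-3p and rno-miR-493-5p had NXT-Exo means of 0.918 to 5.60 CPM, beside 2.83 CPM for rno-miR-708-3p. The median log2 difference was 0.25 over these 5 arms, -0.06 over the 5 members and 0.16 over all 865 miRNAs. Over the 467 listed sequences that averaged at least 10 reads, it was 0.03.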

How the data were processed

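Small RNA of serum exosomes was sequenced, and the authors cleaned the reads with ACGT101-miR, which took out adapters, simple sequences and reads of other RNA classes. The counts deposited by the authors are unscaled reads of each listed sequence. The deposited TPM values are these counts times 1 factor for each library, without a length term, and stand at 0.01 where no read was counted. The build in the submitters' processing notes is Rnor_6.0. The aligner and miRNA database release are not given in the sources used here. The table has 8 further columns of 4 libraries, headed Ctl-Exo 1 to 4, that match no sample description used here and were not used.

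Counts were scaled with edgeR 4.0.16 (TMM) in R 4.3.3, with DESeq2 1.42.0 size factors as an alternative, over the 865 of 867 sequences with reads. Ratios, exact sign-flip permutation tests, Wilson intervals and plots used Python 3.11.15, numpy 2.4.6, pandas 2.3.3, scipy 1.17.1 and matplotlib 3.10.9. Arm ratios had 0.5 reads added to each arm. The comparison and the sign-flip test were tested on simulated data. Between libraries the chi-square per degree of freedom was 38.1 to 272.3. All listed members, the 2 miRNAs with the nearest profile, the 2 nearest hairpins on either side, sequences with a shared seed or number and the LINE-2 list were named by rule, and the longer forms were compared after their values were seen. The members and lists were chosen with earlier results of these data known.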

Additional observations from a re-analysis of the deposited data

Results flagged for a closer look

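In all, 10 sets of 5 NXT-Exo values were examined for a library far from the others. Of these, 3 had a gap to the nearest library above 0.71 of the range. For normally distributed values, chance gives about 1 in 20. Such gaps were not particular to the members. Among the 29 pairs with a longer form compared above, the longer share also passed this limit for miR-222-y (0.763), miR-378-y (0.746) and miR-328-y (0.717). NXT-Exo 3 was low for rno-miR-28-3p (236 CPM against 414 to 443 CPM, a gap of 0.863 of the range) and high for the share of miR-28-y (44.0% against 9.15% to 17.7%, a gap of 0.754). These 2 values draw on the same reads. NXT-Exo 3 was also high for the share of miR-151-y (14.2% against 9.11% to 10.6%, a gap of 0.714), but Ctl-Exo 5 was at 13.5%. The share of miR-28-x was above 0 in NXT-Exo 5 alone, from 8 reads. This set was not counted above, since with the other 4 values at 0 the gap is 1 of the range whatever the value. The causes were not tested.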

How the results depend on the processing

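No paired analysis was possible because replicate number 5 is the only one shared by the libraries used. The columns headed Ctl-Exo 1 to 4 were not used here. With a pseudocount of 10, 0 of the 5 arms were at least 2-fold apart (4 of all 865 miRNAs, against 99), and the log2 difference of rno-miR-708-3p was 0.28, while with 0.1 it was 2.18. Its level of 1 read in Ctl-Exo 5 limits this comparison. No log2 difference of a member changed sign under any alternative, including median-of-ratios factors, listed totals, deposited TPM and each NXT-Exo library left out. That of rno-miR-151-3p was only -0.0031 with listed totals and -0.0017 with deposited TPM. For rno-miR-28-3p it was -0.0017 without NXT-Exo 3 and -0.013 with longer forms added, so the direction of these 2 arms is not settled. With the NXT-Exo libraries only, the mean log2 ratios were -2.01 (miR-28 arms) and -0.67 (miR-151 arms), and the neighbouring levels differed by 0.67, 2.60, 2.01 and 5.11. Leaving out each library in turn gave -2.11 to -1.93 for miR-28 and -0.83 to -0.62 for miR-151. With 5 libraries the exact permutation test cannot go below 0.0625, so these values lost significance by construction. The summed members, added after the values were seen, had a log2 difference of 0.09 with listed totals. By the ratio of NXT-Exo 3 to the other NXT-Exo libraries, miR-28-y ranked 1 of 29 pairs. Without the limit on the share it ranked 4 of 50, and 13 of all 90. In these 2 ranks, pairs with a median of 0 in the other NXT-Exo libraries were counted as higher. NXT-Exo 3 was picked after its miR-28 values were seen, which favours a high rank for miR-28-y.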

Other observations

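With the limit for pairs of a miRNA and its longer form lowered to a mean of 100 reads and the limit of 1% on the share kept, an alternative chosen after the values were seen, 40 pairs remained under comparison. miR-28-y still had the highest ratio of NXT-Exo 3, itself picked for its miR-28 values, to the other NXT-Exo libraries. The next was the pair of rno-miR-6328 (2.69). By the SD of the log2 odds, miR-28-y was then second.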
